A study of Mus musculus with 10 samples.

Results

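The proteasome genes described here encode the subunits and assembly factors of the constitutive proteasome. With them come the tissue-specific subunits Psma8 and Psmb11, the activators Psme3 and Psme4 and the inhibitor Psmf1. All were measured in CD4-positive spleen cells of NOD and B10 mice. They were taken as every gene symbol made of Psm, a letter from a to g and a number, without the interferon-inducible subunit genes Psmb8, Psmb9 and Psmb10 and the activator genes Psme1 and Psme2. The rule found 43 of the 19938 genes with a probe set of their own, and 43 is also the number of mouse RefSeq symbols that fit it. Each gene was read by the probe set with the highest mean.

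The cells came from the spleens of female mice of 8 weeks and were taken with magnetic beads against CD4. NOD is an inbred strain known for autoimmune diabetes and B10 a strain not prone to it; the genotype labels are NODk and B10Br, and whether these mice would become diabetic is not given. The 10 arrays fell into 4 groups, with 2 arrays of stimulated NOD cells (NOD T1), 3 of unstimulated NOD cells (NOD T0), 2 of stimulated B10 cells (B10 T1) and 3 of unstimulated B10 cells (B10 T0). Stimulated cells were kept for 4 hours with PMA (10 ng/ml) plus ionomycin (1 uM), a pair of drugs that acts through protein kinase C and calcium in place of the T cell receptor. The label of T0 is basal, yet the protocol can also be read as 4 hours of culture without the drugs. Replicates are labelled biological, with no animal named, so p-values measure the spread between these samples. T1 replicate 1 is not analysed here.

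The proteasome is the protease that degrades proteins tagged with ubiquitin. Its core particle is a barrel of alpha and beta rings, with the active sites on 3 beta subunits facing the inside. A regulatory particle docks on the barrel end, where receptors in its base bind the ubiquitin-tagged protein, its lid removes the tag, and the ATPases of the base unfold the chain and thread it into the core. Activated T cells make and turn over much protein as they grow and divide, and in lymphocytes part of the core carries the interferon-inducible subunits instead.

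Values are RMA log2 intensities. A difference of 1 is a 2-fold difference in intensity, and values of different genes cannot be set against each other because their probes differ. Differences are group means with limma's standard error (n = 2 arrays at T1 and n = 3 at T0), and a gene was said to rise or fall where the p adjusted over all genes was under 0.05. Array medians lay between 6.18 and 6.23, and arrays of the same group correlated at 0.985 to 0.993 (Pearson's r). The cells held CD4 T cell transcripts, with a mean of 7 markers of 9.60 to 9.82 at T1 and 10.5 to 10.6 at T0 in NOD. In B10 this mean was 9.80 to 9.86 at T1 and 10.7 on each T0 array. In bulk RNA, fewer cells of a type and less RNA per cell cannot be told apart.

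Promoter stretches of 6 genes are shown because their values span the results: Psmd11, Psma5 and Psme3 were among the 6 largest rises in each strain, Psmb5 and Psmb6 encode catalytic subunits, and Psme4 fell. Each is the 160 bases before the RefSeq start on build GRCm38.p6, read along the gene's strand, and capitals mark every full match of a searched motif inside the stretch. The motifs were TGACNNNGC (the antioxidant response element core, bound by NFE2L1 and NFE2L2), CCAAT (bound by NF-Y), CCGGAA (the ETS core) and CACGTG (an E-box), looked for on both strands.
Psmd11 promoter, chr11:80428455-80428614, plus strand: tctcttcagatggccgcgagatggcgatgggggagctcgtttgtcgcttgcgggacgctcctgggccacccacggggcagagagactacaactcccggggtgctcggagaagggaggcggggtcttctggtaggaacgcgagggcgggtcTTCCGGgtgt
Psma5 promoter, chr3:108256766-108256925, plus strand: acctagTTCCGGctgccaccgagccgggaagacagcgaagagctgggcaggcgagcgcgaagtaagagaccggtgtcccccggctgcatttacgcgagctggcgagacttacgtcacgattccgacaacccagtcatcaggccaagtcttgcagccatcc
Psme3 promoter, chr11:101316053-101316212, plus strand: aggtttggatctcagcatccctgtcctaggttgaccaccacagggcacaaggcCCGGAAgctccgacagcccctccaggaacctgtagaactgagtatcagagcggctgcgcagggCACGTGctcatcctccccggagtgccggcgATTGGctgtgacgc
Psmb5 promoter, chr14:54617996-54618155, minus strand: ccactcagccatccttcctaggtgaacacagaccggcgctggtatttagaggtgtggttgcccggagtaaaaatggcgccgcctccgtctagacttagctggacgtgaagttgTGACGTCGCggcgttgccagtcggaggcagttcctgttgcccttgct
Psmb6 promoter, chr11:70525197-70525356, plus strand: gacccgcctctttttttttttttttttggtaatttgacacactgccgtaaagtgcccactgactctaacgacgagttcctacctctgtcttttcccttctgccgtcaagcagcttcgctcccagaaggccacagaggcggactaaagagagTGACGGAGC
Psme4 promoter, chr11:30771615-30771774, plus strand: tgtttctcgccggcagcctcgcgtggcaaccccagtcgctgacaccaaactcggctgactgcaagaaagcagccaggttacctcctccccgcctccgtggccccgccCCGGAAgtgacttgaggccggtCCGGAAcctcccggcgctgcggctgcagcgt

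No 2 matches overlap in the stretches shown. Psmb5 and Psmb6 each hold a TGACNNNGC match close to the start, at base -47 and base -9. Psme4 also holds one, at base -7, which runs past the start and so is not in capitals. Psmd9, which is not shown and neither rose nor fell with stimulation, holds one at base -31. The Psmd11 stretch ends in a CCGGAA match at base -10, and Psme4 holds 2 matches of the same motif at bases -53 and -31. Windows of 300 bases (250 before the start and 50 after) were matched for 35 of the 43 genes, 37 windows in all. Psma8, Psmb1, Psmb2, Psmb7, Psmc3, Psmd3, Psmd7 and Psmg2 were not matched. CCGGAA was in 56.8% of the proteasome windows, in 14.9% of all 32851 windows and in 28.2% of the windows of genes brighter than the median gene. TGACNNNGC was in 16.2%, against 12.4% of all windows and 14.3% of those of brighter genes. CCAAT was in 35.1%, against 37.4% of all windows and 36.8% of those of brighter genes. CACGTG was in 8.11%, against 7.15% of all windows and 10.4% of those of brighter genes. These shares describe letters only, and binding of a factor was not measured.

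With stimulation, many more proteasome genes rose than fell in both strains. In NOD, 23 of the 43 rose, 2 fell (Psme4 and Psma1) and 18 did not pass, with a median difference of 0.31 (1.24-fold) beside 0.081 over all genes. Over all genes, 16.1% rose and 19.5% fell in NOD. In B10, 30 rose, 1 fell (Psme4) and 12 did not pass, with a median of 0.44 (1.35-fold) beside 0.031 over all genes, of which 13.7% rose and 18.1% fell. Proteasome genes are bright on these arrays: 41 of the 43 were above the median gene, and among such genes the shares that rose were 21.5% in NOD and 23.1% in B10. Single T1 arrays all lay above all T0 arrays for 29 of the 43 in NOD and 34 in B10, a pattern that 31% of all genes showed in NOD and 26.8% in B10.

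The share of all genes called higher depended on scaling in NOD. With each array shifted to the same 75th percentile, 5393 genes rose and 3145 fell in NOD, against 3201 and 3884 as deposited, and the median of all genes moved by 0.13. Relative to that, the proteasome median was 0.43 beside 0.21 over all genes, and 31 of the 43 rose. In B10 the same scaling gave 32 rises and a median of 0.50 beside 0.097.

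Markers of other cell types moved with stimulation. All 6 measured B cell markers fell in both strains, with means of 6.56 and 6.63 at T1 and 8.46 to 8.75 at T0 in NOD and of 6.76 and 6.79 at T1 and 8.34 to 8.62 at T0 in B10. Of 7 measured monocyte and macrophage markers, 6 fell in each strain, and their mean was 6.60 to 7.14 on the T1 arrays and 7.62 to 8.65 on the T0 arrays. Of 6 neutrophil markers, 4 fell in NOD and 3 in B10, and their mean was lower on each T1 array (5.42 to 5.81) than on any T0 array. Of the 7 CD4 T cell markers, 4 fell and 1 rose (Cd5, by 0.46) in NOD, and 5 fell and 0 rose in B10. Cd4 itself averaged 9.23 ± 0.24 at T1 and 10.95 ± 0.057 at T0 in NOD, and 9.64 ± 0.16 at T1 and 11.09 ± 0.11 at T0 in B10 (SD, n = 2 and 3). With the monocyte marker mean as a covariate, chosen after seeing the data, 0 rises passed in NOD and 5 in B10 (Psma5, Psma7, Psmd11, Psmd7 and Psme3). That marker mean does not overlap between T0 and T1, and the proteasome genes' median standard error was 3.86 times as large in NOD and 3.05 times as large in B10. The medians kept their sign, at 0.53 in NOD and 0.63 in B10. The part of B cell, neutrophil, dendritic cell, CD8 T cell, NK cell or platelet RNA in the rises was not tested.

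**Figure D1:**
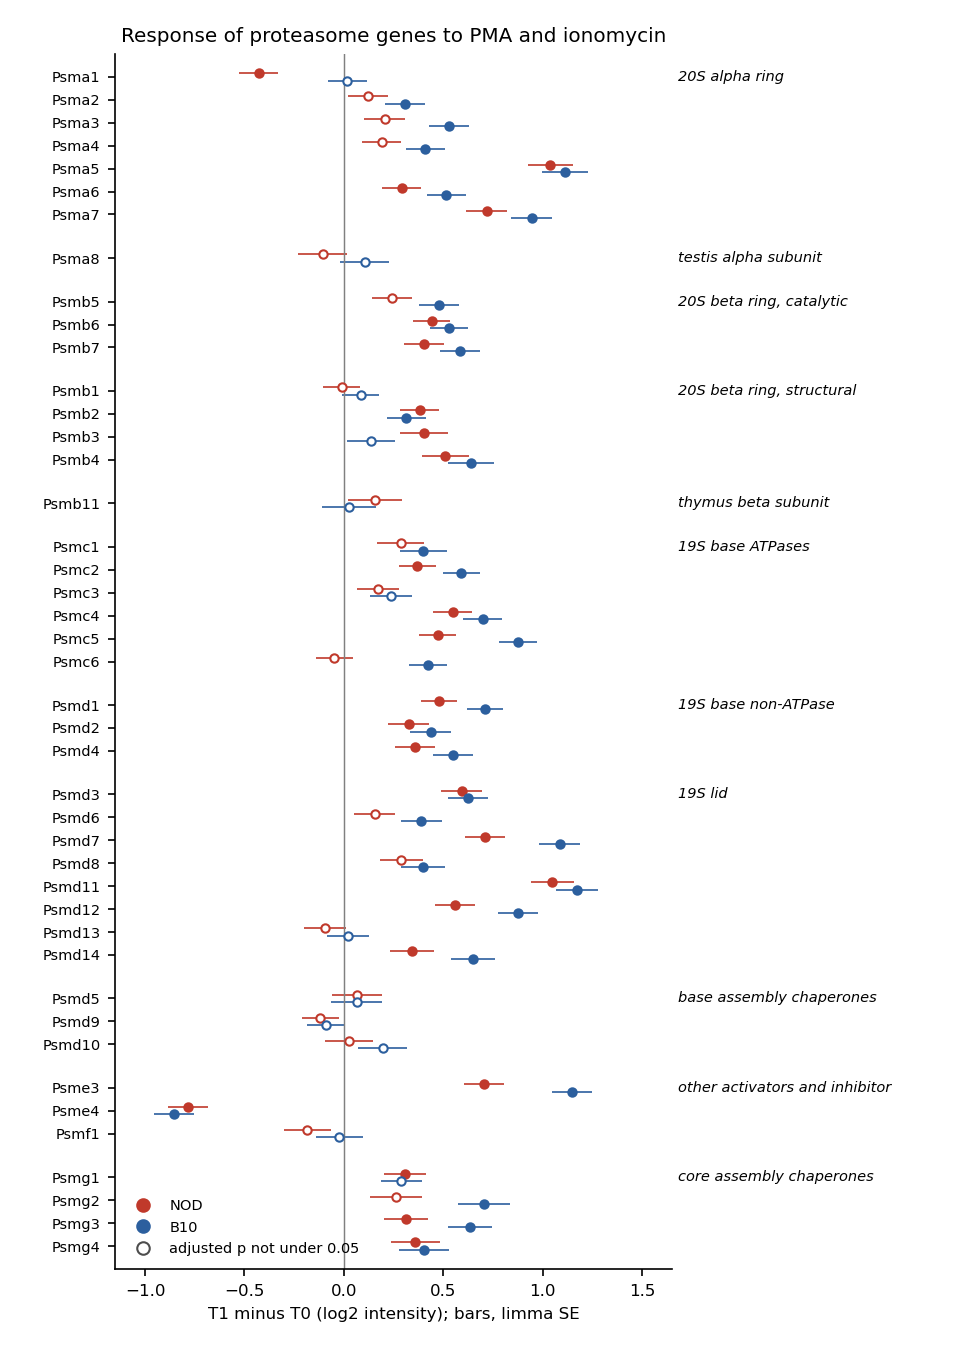
Difference of T1 minus T0 in log2 intensity (horizontal axis) for each of the 43 proteasome genes, grouped by role, in NOD and in B10. Points are differences, bars limma's standard error, and open points did not pass an adjusted p of 0.05; most points lie right of 0, and Psme4 lies left of it in both strains.

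The 21 genes that rose in both strains came from the core particle, the regulatory particle and its partners. Over all genes, 10.2% rose in both. Psmb3 and Psmg1 rose in NOD and did not pass in B10, while Psma2, Psma3, Psma4, Psmb5, Psmc1, Psmc6, Psmd6, Psmd8 and Psmg2 did not pass in NOD and rose in B10. For none of these did the test of the difference between strains pass.

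The alpha ring forms the gate of the core particle. Of its 7 ubiquitously made subunits, 3 rose and 1 fell in NOD, and 6 rose in B10. Psma5 led the ring. Its arrays read 9.99 and 9.94 at T1 and 9.08, 8.70 and 9.01 at T0 in NOD, and 10.12 and 10.13 at T1 and 8.98, 9.02 and 9.05 at T0 in B10. No T1 array overlapped a T0 array, and the rise was 1.04 ± 0.11 in NOD (2.05-fold, adjusted p = 1.17e-05) and 1.11 ± 0.11 in B10 (2.16-fold, adjusted p = 6.27e-06). A second Psma5 probe set gave 1.03 in NOD and 1.11 in B10; whether the 2 probe sets read the same transcript or a copy of the gene is not given.

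Psma7 read 10.23 and 10.24 at T1 and 9.65, 9.37 and 9.53 at T0 in NOD, and 10.42 and 10.49 at T1 and 9.46, 9.60 and 9.46 at T0 in B10. The groups stood apart in each strain, by 0.72 ± 0.10 in NOD (adjusted p = 0.000114) and 0.94 ± 0.10 in B10 (adjusted p = 1.07e-05). Psma6 rose by less, by 0.29 in NOD (adjusted p = 0.0362) and 0.51 in B10 (adjusted p = 0.00106). The NOD differences of Psma2, Psma3 and Psma4 were 0.12 to 0.21 (adjusted p of 0.139 to 0.387), and in B10 they rose by 0.31 to 0.53. Psma3 was read by 3 probe sets, which gave 0.21 to 0.22 in NOD and 0.51 to 0.53 in B10.

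Psma1, another subunit of the alpha ring, fell in NOD. It read 9.82 and 9.86 at T1 and 10.28, 10.18 and 10.35 at T0 in NOD, and 10.32 and 10.15 at T1 and 10.27, 10.19 and 10.19 at T0 in B10. Its T1 arrays were below the T0 arrays in NOD and overlapped them in B10. The fall in NOD was 0.43 on the log2 scale (SE 0.097, adjusted p = 0.00382), and the B10 difference was 0.02 (adjusted p = 0.93). The interaction, -0.44 ± 0.14, did not pass (adjusted p = 0.314), so the responses are not shown to differ.

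The beta ring carries the proteolytic sites on Psmb5 (chymotrypsin-like), Psmb6 (caspase-like) and Psmb7 (trypsin-like). Psmb6 and Psmb7 rose in NOD, and all 3 rose in B10. Psmb5 read 9.39 and 9.23 at T1 and 9.04, 9.09 and 9.08 at T0 in NOD, and 9.59 and 9.50 at T1 and 9.17, 9.07 and 8.96 at T0 in B10. The T1 arrays were the higher ones in both strains. Its difference was 0.24 ± 0.10 in NOD (1.18-fold, adjusted p = 0.0821) and 0.48 ± 0.10 in B10 (1.39-fold, adjusted p = 0.00215). In NOD, Psmb5 passed when scaled to the same 75th percentile (0.37, adjusted p = 0.0211) and among genes brighter than the median gene alone (adjusted p = 0.0432). Without NOD T1 replicate 2 its NOD difference was 0.16 (adjusted p = 0.333). With the monocyte covariate it was -0.38 in NOD and -7.71e-05 in B10, where the call was lost.

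Psmb6 read 10.55 and 10.68 at T1 and 10.25, 10.10 and 10.16 at T0 in NOD, and 10.61 and 10.63 at T1 and 10.10, 10.06 and 10.13 at T0 in B10. All T1 arrays were above all T0 arrays, by 0.44 ± 0.094 in NOD (1.36-fold, adjusted p = 0.00242) and 0.53 ± 0.094 in B10 (1.44-fold, adjusted p = 0.000618). Psmb7 read 10.50 and 10.48 at T1 and 10.18, 10.04 and 10.05 at T0 in NOD, and 10.58 and 10.47 at T1 and 9.82, 10.03 and 9.99 at T0 in B10. The groups again did not overlap, and the rise was 0.40 ± 0.10 in NOD (1.32-fold, adjusted p = 0.0072) and 0.58 ± 0.10 in B10 (1.5-fold, adjusted p = 0.000494).

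The other 4 beta subunits have no active site of their own in the mature core. Psmb4, whose product joins late in the assembly of the ring, rose by 0.51 in NOD (adjusted p = 0.00397) and 0.64 in B10 (adjusted p = 0.000764). Psmb2 rose in both strains, by 0.38 in NOD (adjusted p = 0.00914) and 0.31 in B10 (adjusted p = 0.0274). Psmb3 rose in NOD (0.40, adjusted p = 0.0206) and differed by 0.14 in B10 (adjusted p = 0.483). Its second probe set gave 0.31 in NOD (adjusted p = 0.0743 over all probe sets), which did not pass, and 0.16 in B10. Psmb1 passed in neither strain (-0.01 in NOD and 0.08 in B10). Psma8, a testis subunit, and Psmb11, a subunit of thymic epithelium, stayed between 4.20 and 4.52 and between 5.45 and 6.0 on all arrays and passed in no comparison.

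The genes the interferon-inducible subunits come from moved differently from one another. Psmb10, the inducible counterpart of Psmb7, fell by 0.78 on the log2 scale in NOD (adjusted p = 5.19e-05) and by 1.29 in B10 (adjusted p = 6.24e-07). Psmb9, the counterpart of Psmb6, rose by 0.62 in NOD (adjusted p = 0.00127) and differed by 0.25 in B10 (adjusted p = 0.16). The test of the difference between strains did not pass for Psmb9, so its responses are not shown to differ. Psmb8, the counterpart of Psmb5, passed in neither strain (-0.02 in NOD and -0.25 in B10). Of this group with the activator genes Psme1 and Psme2, 3 of 5 rose and 1 fell in NOD and 2 rose and 1 fell in B10, both activator genes among the rises in each strain. Of all genes, 16.1% rose and 19.5% fell in NOD, and 13.7% rose and 18.1% fell in B10.

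The 6 ATPases of the base work as a ring that unfolds the substrate. Of these, 3 rose in NOD (Psmc2, Psmc4 and Psmc5) and 5 in B10, where Psmc3 (0.24, adjusted p = 0.123) was the exception. Psmc5, one of the ATPases that rose in both, was measured with 10.29 and 10.09 at T1 and 9.76, 9.70 and 9.70 at T0 in NOD, and 10.46 on both T1 arrays and 9.57, 9.58 and 9.60 at T0 in B10. It rose without overlap in both strains, by 0.47 ± 0.094 in NOD (adjusted p = 0.00147) and 0.88 ± 0.094 in B10 (adjusted p = 8.64e-06). Psmc4 rose by 0.55 in NOD and 0.70 in B10, and Psmc2 by 0.37 in NOD and 0.59 in B10. Psmc1 differed by 0.29 in NOD (adjusted p = 0.0777) and rose in B10 (0.40, adjusted p = 0.0191), and its second probe set gave 0.13 in NOD and 0.50 in B10.

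The scaffold subunits Psmd1 and Psmd2 and the ubiquitin receptor Psmd4 rose in both strains. Psmd1 rose by 0.48 in NOD and 0.71 in B10, Psmd4 by 0.36 in NOD and 0.55 in B10, and Psmd2 by 0.33 in NOD and 0.44 in B10. A second Psmd2 probe set gave 0.21 in NOD (adjusted p = 0.13 over all probe sets) and 0.35 in B10.

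The lid had the highest median difference of the role groups, 0.45 in NOD and 0.64 in B10. Of its 8 genes, 5 rose in NOD and 7 in B10. Psmd11, a lid subunit that clamps the regulatory particle onto the core, had the largest rise of all 43 genes in each strain. It read 10.66 and 10.81 at T1 and 9.79, 9.56 and 9.72 at T0 in NOD, and 10.84 and 10.68 at T1 and 9.55, 9.65 and 9.55 at T0 in B10. The T1 arrays lay far above the T0 arrays in both, and the difference was 1.05 ± 0.11 in NOD (2.07-fold, adjusted p = 5.27e-06) and 1.17 ± 0.11 in B10 (2.26-fold, adjusted p = 1.95e-06).

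Psmd7 pairs with the lid deubiquitinase Psmd14. It read 9.92 and 10.00 at T1 and 9.36, 9.09 and 9.30 at T0 in NOD, and 10.17 on both T1 arrays and 9.08, 9.05 and 9.13 at T0 in B10. It rose without overlap by 0.71 ± 0.10 in NOD (1.64-fold, adjusted p = 0.000109) and 1.09 ± 0.10 in B10 (2.12-fold, adjusted p = 2.78e-06). Psmd14 rose by 0.34 in NOD (adjusted p = 0.0301) and 0.65 in B10 (adjusted p = 0.000463).

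Psmd12, a structural lid subunit, read 10.00 and 9.98 at T1 and 9.49, 9.32 and 9.48 at T0 in NOD, and 10.23 and 10.07 at T1 and 9.24, 9.35 and 9.21 at T0 in B10. The groups did not overlap, and it rose by 0.56 ± 0.10 in NOD (adjusted p = 0.000658) and 0.88 ± 0.10 in B10 (adjusted p = 1.53e-05). Psmd3, another structural subunit, read 8.63 and 8.68 at T1 and 8.18, 7.92 and 8.09 at T0 in NOD, and 8.73 and 8.69 at T1 and 8.00, 8.11 and 8.14 at T0 in B10. Its rise was much the same size in both strains, 0.59 ± 0.10 in NOD (adjusted p = 0.000472) and 0.62 ± 0.10 in B10 (adjusted p = 0.000313). Psmd6 and Psmd8 differed by 0.15 and 0.29 in NOD (adjusted p = 0.272 and 0.0588) and rose in B10 (0.39 and 0.40). Psmd13 passed in neither strain, at -0.09 in NOD and 0.02 in B10.

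**Figure D2:**
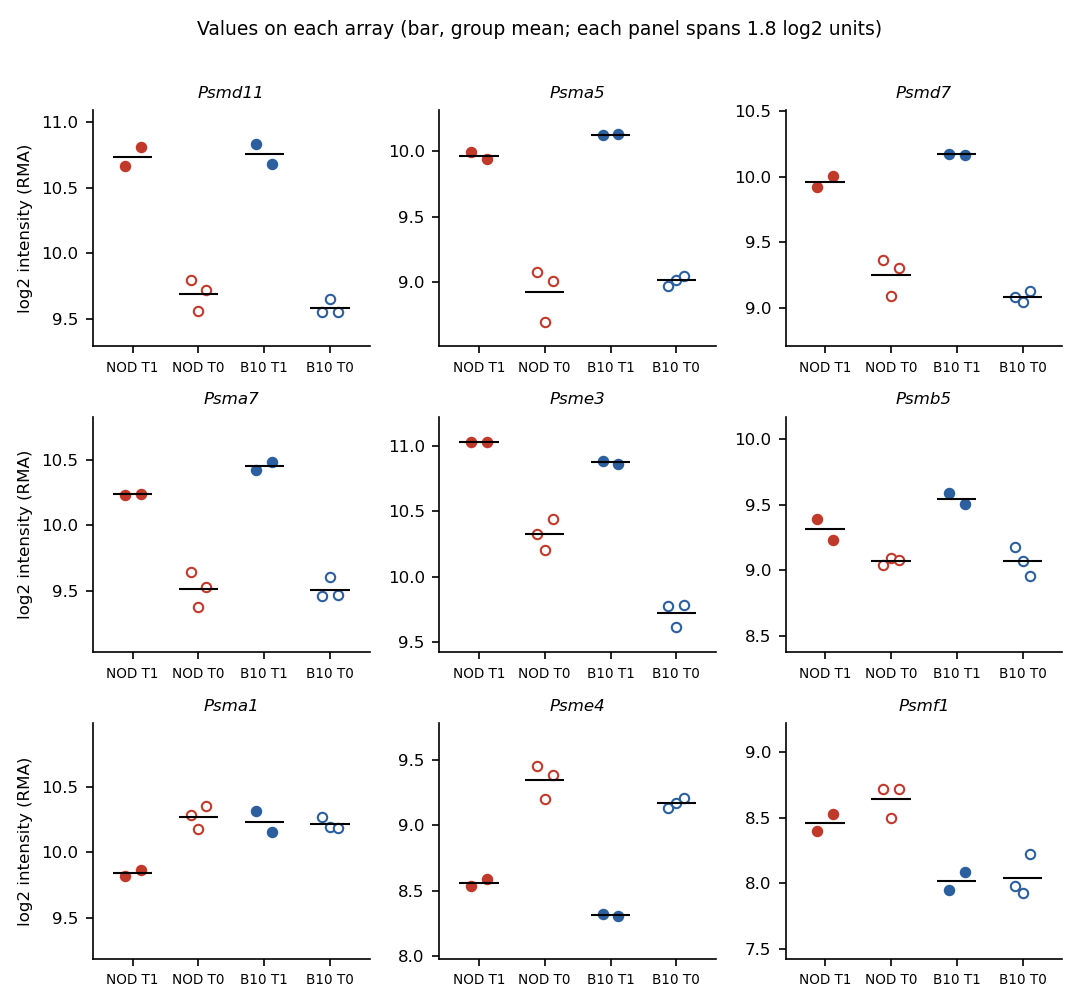
Log2 intensity (vertical axis) on each of the 10 arrays for some of the genes described by array, with a bar at each group mean. Every panel spans the same range of log2 units. T1 points stand above T0 points in each strain for Psmd11, Psma5, Psmd7, Psma7, Psme3 and Psmb5, below them for Psme4, below them in NOD alone for Psma1, and among them for Psmf1.

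Dedicated chaperones assemble the 2 particles. The core chaperone genes Psmg3 and Psmg4 rose in both strains, by 0.31 and 0.36 in NOD (adjusted p = 0.0456 and 0.04) and by 0.64 and 0.40 in B10 (adjusted p = 0.000546 and 0.0247). The NOD call of Psmg3 was lost in 13 of 22 alternatives and that of Psmg4 in 9. With single arrays left out, the NOD difference of Psmg3 was 0.20 to 0.42, and with the monocyte covariate it was -0.45. Psmg1 rose in NOD by 0.31 and differed by 0.29 in B10, close to the threshold on either side (adjusted p = 0.0363 in NOD and 0.0521 in B10). Psmg2, which works as a pair with Psmg1, differed by 0.26 in NOD (adjusted p = 0.137) and rose by 0.70 in B10 (adjusted p = 0.000828). The base chaperone genes Psmd5, Psmd9 and Psmd10 passed in neither strain. In limma 0 of these 3 passed and 0 reached an unadjusted p under 0.05, with differences of -0.12 to 0.07 in NOD and -0.09 to 0.19 in B10.

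The alternative partners of the core particle split. Psme3 encodes a nuclear activator that opens the core without ATP. It read 11.03 on both T1 arrays and 10.33, 10.20 and 10.44 at T0 in NOD, and 10.88 and 10.86 at T1 and 9.78, 9.61 and 9.78 at T0 in B10. All T1 arrays were above all T0 arrays, by 0.70 ± 0.10 in NOD (1.63-fold, adjusted p = 0.000111) and 1.15 ± 0.10 in B10 (2.22-fold, adjusted p = 1.60e-06).

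Psme4, a large nuclear activator, fell in both strains. Its arrays read 8.53 and 8.59 at T1 and 9.45, 9.20 and 9.38 at T0 in NOD, and 8.32 and 8.31 at T1 and 9.13, 9.17 and 9.21 at T0 in B10. Every T1 array was below every T0 array. The difference was -0.78 ± 0.10 in NOD (T0 1.72-fold higher, adjusted p = 3.75e-05) and -0.85 ± 0.10 in B10 (T0 1.81-fold higher, adjusted p = 1.71e-05). Over all genes, 15.7% fell in both strains.

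Psmf1, whose product inhibits the core in the test tube, read 8.40 and 8.53 at T1 and 8.72, 8.50 and 8.72 at T0 in NOD, and 7.95 and 8.09 at T1 and 7.98, 7.92 and 8.22 at T0 in B10. T1 and T0 arrays overlapped in each strain, and neither difference passed (-0.18, adjusted p = 0.254 in NOD, and -0.02, adjusted p = 0.921 in B10). The NOD arrays were above the B10 arrays in each state.

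**Figure D3:**
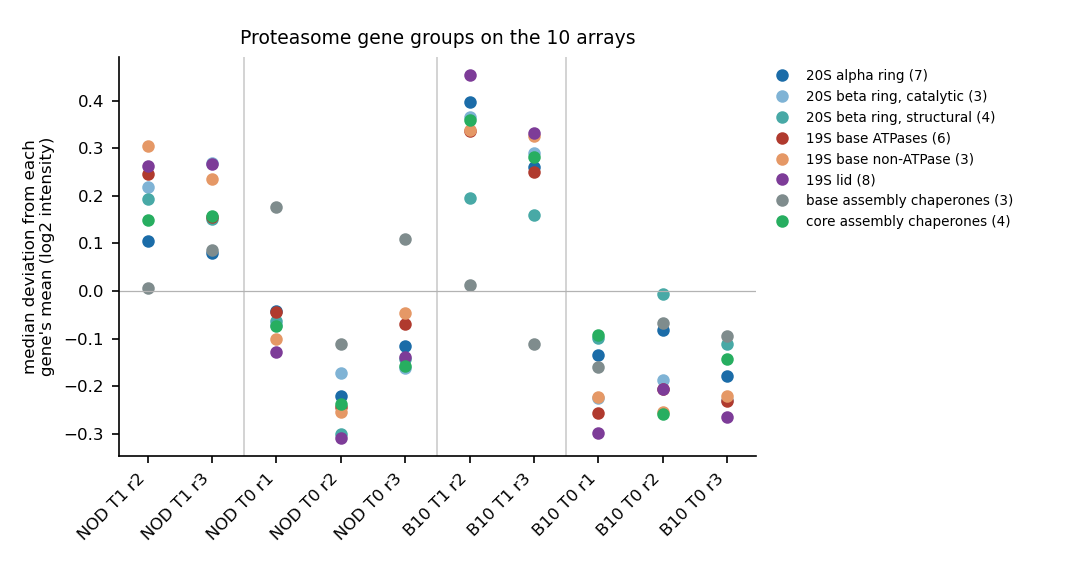
Median deviation from each gene's own mean (vertical axis, log2 intensity) for the genes of each role on each of the 10 arrays (horizontal axis). The role medians were higher on T1 than on T0 arrays for the rings, the base and the lid, and NOD T0 replicate 2 was the lowest NOD T0 array for the alpha ring.

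At the 2-fold mark the calls were few. In NOD, Psma5 and Psmd11 passed with more than 2-fold, and 3.36% of all genes rose that far. In B10, Psma5, Psmd11, Psmd7 and Psme3 did, with 4.09% of all genes. Of the calls in single genes, 16 of 25 in NOD and 22 of 31 in B10 passed under every alternative processing other than the monocyte covariate, those of Psmd11, Psma5, Psma7, Psmd7, Psmd12, Psmd3, Psmb6, Psmb7, Psme3 and Psme4 in both strains among them. The other 9 calls in NOD (Psma6, Psmb2, Psmb3, Psmd14, Psmd2, Psmd4, Psmg1, Psmg3 and Psmg4) and 9 in B10 (Psma2, Psma4, Psmb2, Psmc1, Psmc6, Psmd2, Psmd6, Psmd8 and Psmg4) were each lost on leaving out at least 1 single array.

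The difference between strains in unstimulated cells was small for most genes. At T0, Psme3 and Psmf1 were higher in NOD, and 0 of the 43 were lower. Over all genes, 3.44% were higher and 2.35% lower in NOD at T0, and an unadjusted p under 0.05 in limma was found for 7 of the 43, against 15.8% of all genes, a share close to that of the 43. The Psme3 difference was 0.60 ± 0.091 (1.51-fold, adjusted p = 0.00222), and its 3 NOD T0 arrays (10.20 to 10.44) were above its 3 B10 T0 arrays (9.61 to 9.78). The Psmf1 difference was 0.60 ± 0.11 (1.52-fold, adjusted p = 0.00548), with NOD T0 arrays of 8.50 to 8.72 and B10 T0 arrays of 7.92 to 8.22. Without NOD T0 replicate 2, 4 genes were higher in NOD at T0, Psmd10 and Psmg2 being the others. On that array the proteasome genes had a median deviation from their means of -0.23, against -0.06 and -0.10 on the other NOD T0 arrays.

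Markers of other cells differed at T0 alongside. All 4 measured erythroid markers were higher in NOD at T0, and their mean was 10.42 to 10.96 on the NOD T0 arrays and 7.31 to 9.65 on the B10 T0 arrays. Of 7 monocyte and macrophage markers 4 were higher in NOD at T0, and their mean was 8.38 to 8.65 in NOD and 7.62 to 8.08 in B10. Of 6 neutrophil markers 3 were higher in NOD at T0, Ngp by 1.14, and their mean was 6.77 to 7.14 in NOD and at most 6.51 in B10. With the mean of Alas2, Klf1 and Car2 as a covariate, neither gene passed at T0. The difference was then 0.48 for Psme3 (adjusted p = 0.271) and 0.31 for Psmf1 (adjusted p = 0.587). With the monocyte markers as the covariate the difference was 0.52 for Psme3 (adjusted p = 0.587) and 0.24 for Psmf1 (adjusted p = 0.937). At T0 the proteasome genes' median standard error was 1.73 times as large with the erythroid covariate and 2.07 times as large with the monocyte covariate. Over all genes they gave 136 and 46 calls at T0, against 1155 without a covariate. These marker means do not overlap between the strains at T0, and the markers and the strain cannot be told apart there.

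The interferon-inducible genes ran the other way at T0. Psmb8, Psmb9, Psmb10 and Psme1 were lower in NOD, which are 4 of the 5 genes of that group, with differences of -0.62 to -0.44. Of all genes, 2.35% were lower in NOD at T0. Psmb8 read 9.65, 9.56 and 9.70 on the NOD T0 arrays and 10.30, 10.26 and 10.20 on the B10 T0 arrays (adjusted p = 0.000834). Among the constitutive catalytic genes, Psmb5, Psmb6 and Psmb7 differed between strains at T0 by 0.0025, 0.07 and 0.15, with adjusted p of 0.511 and above.

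In stimulated cells none of the 43 genes passed between strains. By limma 0 were higher and 0 lower in NOD at T1, and over all genes 1.77% were higher and 1.83% lower. An unadjusted p under 0.05 was found for 10 of the 43 and for 16.4% of all genes. Single values were below 0 for 34 of the 43, with a median of -0.10 beside 0.0091 over all genes and -0.047 over genes brighter than the median gene. Values were below 0 for 48.2% of all genes and 59.1% of the brighter ones. Scaled to the same 75th percentile, 28 of the 43 were below 0 and their median was -0.06. Psma1 came closest, at -0.39 ± 0.11 (adjusted p = 0.0667), and Psmc6 followed at -0.33 ± 0.10 (adjusted p = 0.104). Both passed as lower in NOD with only the brighter genes tested and with the trend and robust settings of eBayes. Psmf1 had a higher mean in NOD at T1 (8.46 ± 0.092 against 8.02 ± 0.096, SD, n = 2 each), with a difference of 0.44 ± 0.13 (adjusted p = 0.0871). Under the alternatives this Psmf1 difference ranged from 0.19 to 0.51. All 4 measured erythroid markers also had higher NOD arrays at T1 without overlap, with a median difference of 2.06, and 0 of them passed. Erythroid markers and strain therefore cannot be told apart at T1 either.

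The responses of NOD and B10 were compared through the interaction, the NOD response minus the B10 response. By limma 0 of the 43 passed in either direction, beside 0.0953% of all genes above and 0.15% below 0. An unadjusted p under 0.05 was found for 8 of the 43 and for 9.23% of all genes. The value was below 0 for 37 of the 43, which is a smaller or more negative response in NOD for those genes, and the median was -0.17. Over all genes 47.4% of values were below 0, and among genes brighter than the median gene 58.5% were, with a median of -0.042. Under scaling to the same 75th percentile 34 of the 43 were below 0 and the median was -0.11, beside 0.073 over all genes. Psmc6 had the lowest value, -0.47 ± 0.13 (adjusted p = 0.256), with a difference of -0.05 in NOD and a rise of 0.42 in B10. Psmc5 and Psmc6, 2 of the 43, had all NOD arrays on one side of the B10 arrays at T1 and on the other side at T0, as did 2.13% of all genes, and neither passed between strains in either state.

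**Figure D4:**
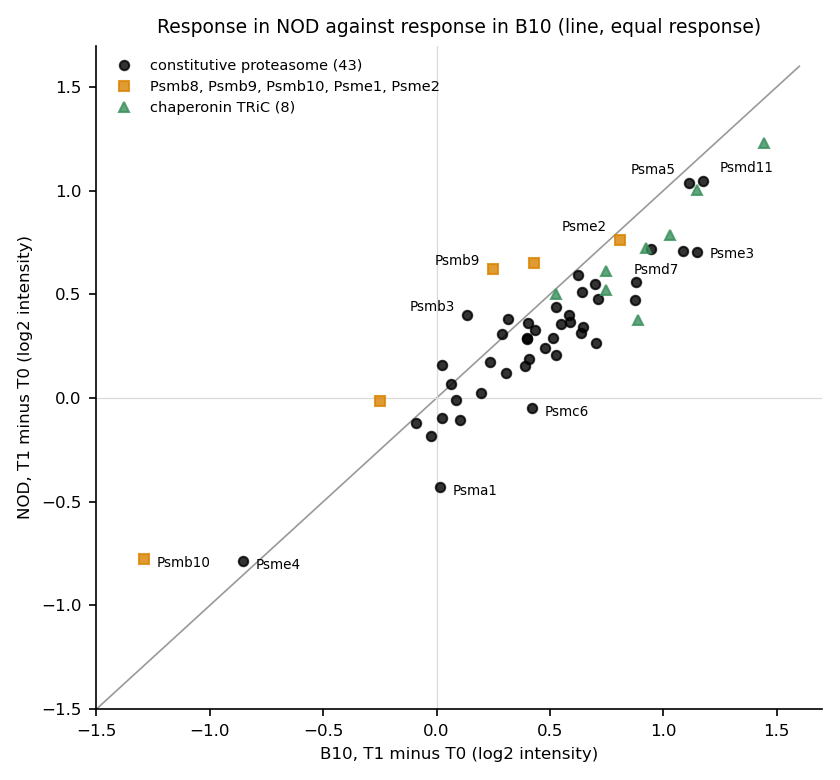
Difference of T1 minus T0 (log2 intensity) in NOD (vertical axis) against that in B10 (horizontal axis), 1 point per gene, for the 43 proteasome genes, the 5 interferon-inducible and activator genes and the 8 chaperonin genes; the line marks equal differences. Of the 43 proteasome genes, 37 lie below the line.

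Partners outside the complex were read from lists chosen with earlier results known. Of 12 measured regulators and partners (15 listed), 5 rose and 3 fell in each strain. The shares of all genes were 16.1% that rose and 19.5% that fell in NOD, and 13.7% and 18.1% in B10. Nfe2l1, the transcription factor that raises proteasome genes when proteasome capacity is short, rose by 0.55 in NOD (adjusted p = 0.000632) and 0.51 in B10 (adjusted p = 0.00121). Pomp, the maturation chaperone of the core, rose by 0.58 in NOD and 0.51 in B10, and Usp14, a deubiquitinase that sits on the base, by 0.48 in NOD and 0.73 in B10. Txnl1 and Ecpas, which bind the assembled proteasome, rose by 0.54 and 0.36 in NOD and by 0.69 and 0.45 in B10.

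The genes that fell were Zfand2a, an arsenite-inducible partner of the regulatory particle (-1.22 in NOD and -1.11 in B10), Ngly1, which processes NFE2L1 (-0.84 in NOD and -0.55 in B10), and Akirin2, which helps import proteasomes into the nucleus (-0.45 in NOD and -0.58 in B10). Nfe2l2, the stress-responsive relative of Nfe2l1, passed in neither response and was lower in NOD in both states. It read 9.02 and 8.87 at T1 and 9.32, 9.14 and 9.21 at T0 in NOD, and 9.64 and 9.57 at T1 and 9.58, 9.72 and 9.84 at T0 in B10. The NOD arrays were the lower ones in each state, with differences of -0.66 at T1 (adjusted p = 0.00988) and -0.49 at T0 (adjusted p = 0.00915).

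Of 8 measured genes (14 listed) for ubiquitin activation, the unfoldase p97 and shuttle factors, 4 rose and 2 fell in NOD, and 5 rose and 1 fell in B10. Beside them, 16.1% of all genes rose and 19.5% fell in NOD, and 13.7% rose and 18.1% fell in B10. Ubqln4, a shuttle factor, rose by 0.92 in each strain, and Uba6, a ubiquitin-activating enzyme, by 0.81 in NOD and 0.74 in B10. The shuttles Rad23b and Ubqln1 rose by 0.46 and 0.29 in NOD and by 0.47 in B10 each. Nploc4, a cofactor of p97, differed by 0.26 in NOD (adjusted p = 0.0649) and rose in B10 (0.29, adjusted p = 0.0437). Ufd1, its partner, fell in both (-0.49 in NOD and -0.36 in B10), and Vcp, which encodes p97, fell in NOD (-0.33, adjusted p = 0.0154) and differed by 0.07 in B10 (adjusted p = 0.662). In limma 0 of the 8 interactions passed, that of Vcp being -0.40, so the responses of these genes are not shown to differ. Vcp was higher in NOD at T0, by 0.41 (adjusted p = 0.0111).

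The chaperonin TRiC, a ring that folds actin, tubulin and other proteins, gives a second complex read the same way. All 8 of its genes rose in both strains, with medians of 0.67 in NOD and 0.91 in B10, while 10.2% of all genes rose in both. Its interaction values were below 0 for all 8, as were 47.4% of all genes and 58.5% of those brighter than the median gene. In limma 0 of the 8 interactions passed (lowest adjusted p = 0.191), so the responses are not shown to differ.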

How the data were processed

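RNA of CD4-positive spleen cells was measured on 10 Affymetrix mouse gene arrays. The authors deposited log2 intensities, made with RMA in Affymetrix Power Tools per the submitters' processing notes, which give no version. Their base was taken from the range they span. Detection calls are not used here. Differences of genes near background are understated by an unknown amount, and the small number of arrays limits precision.

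Of 35486 probe sets, 21789 had 1 symbol in the platform table, 1621 several and 12076 none listed. For 91 of those with 1 symbol the gene identifier did not match mouse RefSeq (GRCm38.p6). The brightest probe set stood for each of 19938 genes, and 5 of the 43 proteasome genes had more than 1.

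A model of 4 group means was fitted with limma 3.58.1 in R 4.3.3 to all arrays (6 residual and 6.30 prior degrees of freedom, eBayes, two-sided). In each of 5 contrasts the Benjamini-Hochberg method was applied to the p-values of all genes, and the threshold was 0.05. The fit was tested on simulated arrays. Values on every array are given for the catalytic subunits, Psme3, Psme4, Psmf1, the 6 largest rises and falls per strain and any gene that passed between strains, and also for Psmc5, Psmc6, Psmb8 and Nfe2l2, chosen after their values were seen. Members, lists, motifs and these rules were chosen with earlier results of these data known. Alternatives were scaling, probe set choice, brighter genes, trend and robust eBayes, array weights, the compared arrays alone, replicate blocks, 2 marker covariates and omission of arrays. Promoter sequences are from RefSeq, build GRCm38.p6. Figures were drawn with matplotlib 3.10.9.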

Additional observations from a re-analysis of the deposited data

Results flagged for a closer look

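Psmc5 and Psmc6, 2 ATPases of the base, differed between strains in opposite directions in the 2 states with no overlap of single arrays. Neither passed between strains in either state, with adjusted p of 0.2 for Psmc5 and 0.104 for Psmc6 at T1 and of 0.531 for Psmc5 and 0.519 for Psmc6 at T0. They are described because of this pattern, which 2.13% of all genes also showed in one order or the other. Psmc5 read 10.29 and 10.09 on the NOD T1 arrays and 10.46 on both B10 T1 arrays, all NOD values being the lower. At T0 it read 9.76, 9.70 and 9.70 in NOD and 9.57, 9.58 and 9.60 in B10, all NOD values being the higher. Its interaction was -0.404 and did not pass in limma (adjusted p = 0.36). Psmc6 read 9.96 and 9.90 on the NOD T1 arrays and 10.35 and 10.18 on the B10 T1 arrays. At T0 it read 10.00, 9.94 and 9.99 in NOD and 9.79, 9.90 and 9.84 in B10, again with NOD lower at T1 and higher at T0. Its interaction was -0.471 and did not pass either (adjusted p = 0.256).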

How the results depend on the processing

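Of the calls in response to stimulation, 16 of 25 in NOD and 22 of 31 in B10 passed under every alternative other than the monocyte and macrophage covariate, and 0 of 2 calls between strains at T0. With each array scaled to the same 75th percentile, the median difference of the proteasome genes was 0.43 in NOD, 0.50 in B10 and -0.11 in the interaction. Omission of single arrays gave 16 to 23 rises in NOD, 23 to 31 in B10 and 2 to 4 genes higher in NOD at T0. The medians then ranged over 0.25 to 0.34 in NOD, 0.44 to 0.51 in B10 and -0.23 to -0.13 in the interaction. Without both B10 arrays of replicate 3, the B10 median was 0.50. Array weights gave 6 genes higher in NOD at T0 (Psmc2, Psmd1, Psmd10, Psme3, Psmf1 and Psmg2), and the erythroid covariate gave 0. With only brighter genes tested, or with trend and robust eBayes, 2 genes were lower in NOD at T1, Psma1 and Psmc6. Replicate numbers repeat across states, with no label saying that they mark a shared animal or day. Deviations from the group means correlated at -0.014 for replicate 2 and 0.22 for replicate 3 in NOD and at 0.41 and 0.40 in B10, so 3 of 4 same-numbered pairs correlated above 0.1, and 3 of 4 T1 arrays correlated best with their own number. With the replicate number as a block shared by both strains, 19 genes rose in NOD and 29 in B10, and 2 were higher in NOD at T0. The calls not made with it were those of Psmd14, Psmd2, Psmg1 and Psmg3 in NOD and of Psmb2 in B10. Over all genes the block gave 6313 calls in NOD and 5893 in B10, and the fit without it gave 7085 in NOD and 6342 in B10. With strain and replicate number together as a random block, none of the calls in single proteasome genes was lost.

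The monocyte and macrophage covariate, added after seeing the data, moved the most: 0 genes rose and 0 fell in NOD, 5 rose and 0 fell in B10, and 0 passed between strains at T0. Over all genes it gave 421 calls in NOD and 1111 in B10. The medians were 0.53 in NOD, 0.63 in B10 and -0.11 in the interaction. Under it the response of Psmb5 turned to -0.38 in NOD and -7.71e-05 in B10, that of Psmg3 to -0.45 and that of Psmf1 to 0.66 in NOD, and the T0 strain values of Psmd11, Psmd7 and Psme4 to -0.027, -0.013 and -0.0082. None of these passed, and the cause was not tested. The 2 or 3 arrays per group limit which small differences can pass.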
